A study of Mus musculus with 2 samples.

Results

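The genes described here are the mouse zinc finger genes whose symbol is Zfp followed by 3 digits, as expressed in bone marrow (BM) LSKs. The deposited tables listed 294 such genes among 34745, and the 152 that reached an FPKM of 1 in 1 library or both were taken as members. FPKM counts fragments per kilobase of a gene's exons after scaling to library size. The members were thus chosen by their measured FPKM, and what follows is a description without tests. Of the other genes, 23 had no read in either library and 119 had reads but stayed under the limit. The members just inside the limit were Zfp937, with an FPKM of 0.338 at week-0 and 1.01 at week-3, Zfp719 with 1.02 and 0.837, and Zfp276 with 0.67 and 1.02. Just outside were Zfp414 with 0.986 and 0.992, Zfp507 with 0.991 and 0.300, and Zfp429 with 0.200 and 0.983.

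LSKs, which are lineage-negative, Sca1+ and c-Kit+ cells, were sorted from BM of C57BL/6 mice carrying both the Scl/tTA and the TRE-BCR/ABL (BA) transgenes. Doxycycline keeps BA off in this tet-off model, so the week-0 library came from mice kept on doxycycline and the week-3 library from mice 3 weeks after its withdrawal. The transactivator tTA is driven by Scl regulatory sequence, which acts in hematopoietic stem and progenitor cells, and both groups carried both transgenes. Each time point was 1 library of LSKs from 3 mice mixed together, so the spread between mice is unknown, no difference has a replicate check, and every comparison is between these 2 libraries. The BA transcript itself was not analysed here.

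On genes, 6356164 reads were counted at week-0, compared with 3886695 at week-3. The week-3 library also differed in markers of cell types. All 8 mast cell markers were at least doubled in FPKM, from 129.3 to 3961 RPM (reads per 1000000 reads on genes) in sum with Tpsb2 and Mcpt4 at 0 reads at week-0, and 5 of 6 neutrophil markers were too, from 1056 to 5561. The summed level of 6 B cell markers went from 3569 to 461.8 RPM (4 at or under an FPKM ratio of 0.5), that of 5 T cell markers from 53.96 to 27.79 (2), and that of 5 erythroid markers from 456.7 to 58.4 (5). Kit and Ly6a, which encode the sorted c-Kit and Sca1, were present in both libraries, with FPKM of 16.9 and 11.5 for Kit and 19.8 and 14.8 for Ly6a, while the 7 LSK markers went from 1980 to 895.4 RPM in sum. All 7 had log2 ratios below 0, from -0.42 to -2.02, and 3 of them (Flt3, Mecom and Procr) passed the limit for lower. The part of these cell types in the zinc finger values below was not tested, and in bulk RNA fewer cells of a type cannot be told apart from less RNA per cell.

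Most Zfp genes encode proteins with C2H2 zinc fingers, short loops held by cysteines and histidines that are repeated in tandem and read DNA bases. Many also carry an N-terminal KRAB domain, which recruits the co-repressor TRIM28 and through it the histone methyltransferase SETDB1, HP1 proteins and deacetylases, a route best known for silencing retroelements and imprinted loci. Genes of the KRAB kind arose mostly by tandem duplication and often lie in clusters, whereas others with the same name are transcription factors without KRAB, RNA-binding proteins or ribosome factors.

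Levels were low for most members. The median FPKM of the 152 was 2.135 at week-0 and 2.35 at week-3, from median read counts of 81 and 53, and only 19 members reached 10 FPKM in either library. The members together took 3891 RPM at week-0 and 3688 at week-3, a log2 ratio of -0.08 with a 95% counting interval of -0.11 to -0.05. These intervals are exact Clopper-Pearson intervals on the reads and cover counting error only, not the spread between mice. PCR copies of a cDNA are counted as separate reads, so the intervals may be too narrow even for counting error. On these counts, 55 members had an interval above 0 on the log2 scale, 42 below 0 and 55 across it. Over all 11776 expressed genes the counts were 4172, 3283 and 4321, so the members were near the background.

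Between the libraries, 29 members (19.1%) had at least a doubled FPKM at week-3 and 22 (14.5%) had an FPKM ratio of 0.5 or less, while 101 lay between. Over all 11776 genes that reached an FPKM of 1 in 1 library or both, 12.9% were higher by this limit and 15.8% were lower. The median log2 ratio (week-3 over week-0) was 0.21 for the members, with quartiles of -0.56 and 0.69, and 0.10 for all expressed genes. The rule bears on these counts, since 31 members passed the limit only at week-3 and 11 only at week-0. Among the 110 members at 1 FPKM or more in both libraries, 9 were higher and 13 were lower, with a median of 0.07. The background for that stricter limit was 8.18% higher and 9.75% lower over 9616 genes, with a median of 0.11. Scaling by TMM instead of total reads moved every log2 ratio by -0.11, which put the median of all expressed genes at -0.01.

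**Figure D1:**
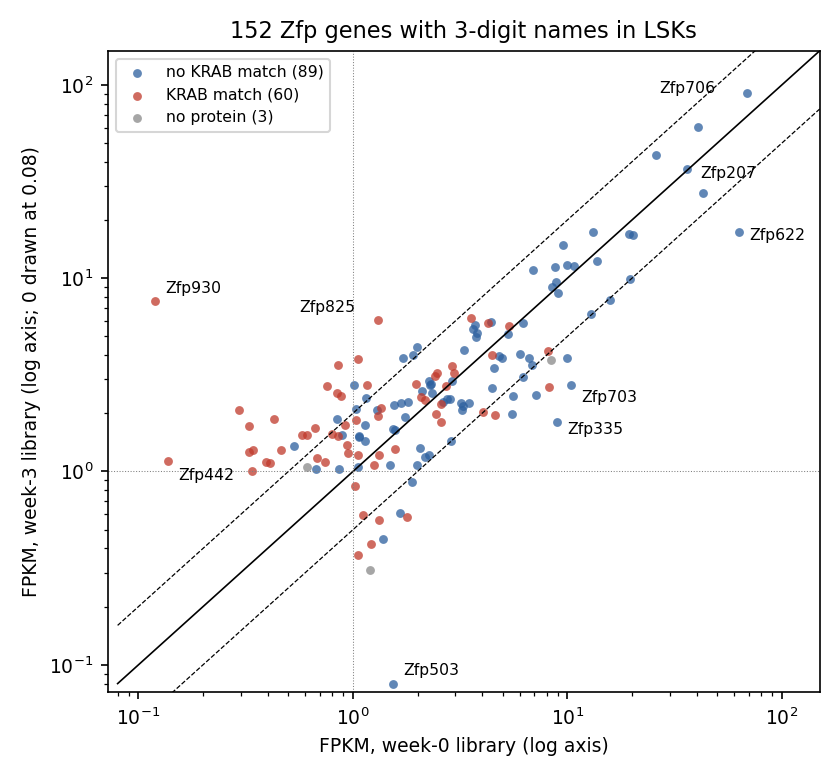
FPKM of the 152 members in the week-0 library (x axis) and the week-3 library (y axis), both on log axes, with colour for a match to the KRAB letters. The solid line is a ratio of 1, dashed lines are ratios of 2 and 0.5, dotted lines are an FPKM of 1, and a value of 0 (Zfp503) is drawn at the lower edge. Of the members, 29 lie on or above the upper dashed line and 22 on or below the lower one, and the 8 with the highest mean level have no KRAB match.

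The 8 members with the highest mean FPKM all lacked a KRAB match, and 4 of them had a higher and 4 a lower FPKM at week-3. Zfp706, which encodes a small protein with 1 finger by the pattern used, was the most abundant, with 1925 week-0 and 1558 week-3 reads. Its FPKM was 68.6 and 90.8, a log2 ratio of 0.40 (interval 0.31 to 0.50). Zfp330, which encodes the nucleolar protein NOA36, had FPKM of 40.8 and 60.2. Zfp771 had 25.7 and 43.1. These 3 were moderately higher in the week-3 library. Zfp207, encoding the kinetochore and spindle protein BuGZ, had 2058 and 1269 reads and FPKM of 36.2 and 36.5, a log2 ratio of 0.01 (interval -0.09 to 0.11). Zfp511 had FPKM of 42.8 and 27.6, Zfp422 had 20.1 and 16.7, and Zfp830 had 19.4 and 17.0. The only one of the 8 past the fold limit was Zfp622, the mouse ZPR9, a cytoplasmic factor of large ribosomal subunit maturation. It had 1118 week-0 and 189 week-3 reads, FPKM of 62.8 and 17.3 and a log2 ratio of -1.85 (interval -2.08 to -1.63).

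Proteins were sorted by a search for the letters of the KRAB A-box (7 or more of 10 fixed letters) and for the C2H2 finger pattern in the longest coding transcript of each gene. Of the listed Zfp genes, 151 had a KRAB match, 135 had a protein without one and 8 had no protein. Fewer of those with a match were expressed: 60 of 151 (39.7%) passed the FPKM limit, against 89 of 135 (65.9%) without a match. The members with a match had a median of 11 fingers and a transcript GC content of 43.17%, and those without had medians of 6 fingers and 52.04%.

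More members with a KRAB match were higher than lower in the week-3 library, and the reverse was counted for members without one. Of the 60, 21 (35%) were higher and 6 were lower, with a median log2 ratio of 0.56. Of the 89 without a match, 8 (8.99%) were higher and 14 (15.7%) were lower, with a median of 0.01, which became -0.10 with TMM scaling. The limit on FPKM bears on this as well, because 25 members with a match passed it only at week-3 and 6 only at week-0. In the 29 with a match at 1 FPKM or more in both libraries, 3 were higher, 2 were lower and the median was 0.14, near the 0.11 of all genes under that limit.

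Summed reads do not depend on the limit, since they can be taken over every listed gene at any level. This sum was chosen after seeing the data. The listed Zfp genes with a KRAB match took 677 RPM in the week-0 library (4304 reads) and 844 in the week-3 library (3280 reads), a log2 ratio of 0.32 (interval 0.25 to 0.38). Those without a match took 3485 and 3138 RPM, a log2 ratio of -0.15 (interval -0.18 to -0.12). The 2 sums thus moved in opposite directions, and the TMM shift of -0.11 is smaller than either of them. The sum without a match held 22151 week-0 and 12196 week-3 reads, of which Zfp622 alone gave 1118 and 189. That sum was not taken without Zfp622. Of the genes under the FPKM limit, those with a match had 1000 week-0 and 766 week-3 reads, a log2 ratio of 0.33 (interval 0.19 to 0.46), so the sum was also higher among genes that the rule left out.

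KRAB genes with other names were summed in the same way. Outside the 3-digit symbols, 151 listed genes had a KRAB match and at least 2 fingers, and the reads of all of them, at any level, came to 317 RPM at week-0 and 437 RPM at week-3, a log2 ratio of 0.46 (interval 0.37 to 0.56). Of these genes, 38 were expressed, 16 of them higher and 2 lower with a median of 0.79, but 19 had passed the limit only at week-3. The 16 at 1 FPKM or more in both libraries had 2 higher and 1 lower, with a median of 0.32. The 89 other expressed finger genes without a match had 9 higher and 21 lower and a median of -0.23. Base composition was measured beside this: across all expressed genes the Spearman correlation of GC content with the log2 ratio was -0.111 (10097 genes), across the members it was -0.176 (148), and across the members with a match -0.0703 (60). In 5 ranges of GC content, from 30 to 42% up to 54 to 75%, the median of all expressed genes went from 0.29 to 0.01. Members with a match had medians of 0.56 (28 members), 0.23 (11), 1.34 (7), 0.66 (7) and 0.39 (7) in these ranges, and the second was close to the 0.19 of all genes there. Members without a match had medians from -0.24 to 0.49. Genes within a library share its depth and preparation, so these correlations are descriptions.

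**Figure D2:**
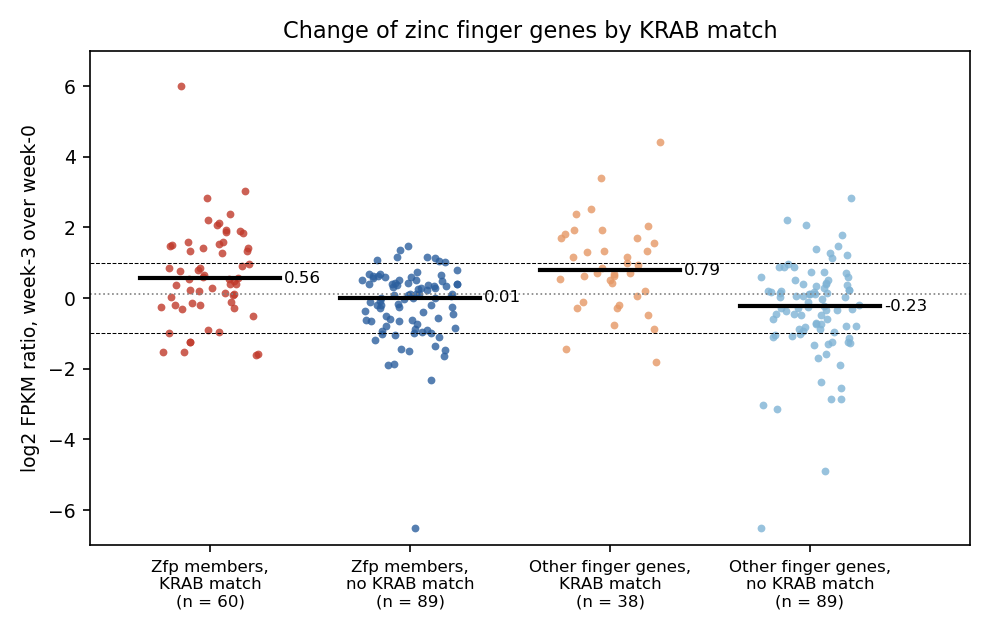
Log2 FPKM ratio (week-3 over week-0, y axis) of single expressed genes, 1 point each, in 4 classes of zinc finger gene. Black bars are medians (0.56, 0.01, 0.79 and -0.23 from left to right), dashed lines are ratios of 2 and 0.5, the dotted line is the median of all expressed genes (0.10), and ratios against 0 are drawn at the edge.

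The counts by level follow the same limit. Split at the median of the members' mean FPKM, 2.401, the 43 lower-level members with a KRAB match had 18 higher and 4 lower (median 0.84), and the 31 without had 5 higher and 5 lower (median 0.30). At or over the split, the 17 with a match had 3 higher and 2 lower (median 0.14), and the 58 without had 3 higher and 9 lower (median -0.14). Of the 43 lower-level members with a match, 24 had passed the limit only at week-3 and 6 only at week-0. The 13 of them at 1 FPKM or more in both libraries had 1 higher and 0 lower, with a median of 0.20.

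Of the members with at least 20 reads over both libraries, the 10 with the highest ratios all had a KRAB match. Of these 10, 8 were under an FPKM of 1 at week-0 and so were members only through the library in which they were high, the exceptions being Zfp825 and Zfp599. Zfp930 headed them, with 1 week-0 and 39 week-3 reads and FPKM of 0.119 and 7.58, a log2 ratio of 5.99 with an interval from 3.43 to 11.3. The deposited model of Zfp930, chr8:69226343-69228980 on GRCm38, is only part of the gene in GENCODE M21. Zfp442 had 4 and 20 reads and FPKM of 0.138 and 1.13 (log2 ratio 3.03, interval 1.45 to 5.04). These are few reads, and the intervals are correspondingly wide.

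The next genes had smaller ratios. Zfp764 had 10 and 32 reads and a log2 ratio of 2.39. Zfp825 had 17 and 48 reads and FPKM of 1.31 and 6.05 (log2 ratio 2.21, interval 1.38 to 3.10). Zfp715, with 18 fingers, had 18 and 48 reads and a log2 ratio of 2.12. Each of these genes had more reads in the shallower week-3 library than in the week-0 library. Zfp566 (11 and 28 reads, log2 ratio 2.06), Zfp947 (6 and 14, 1.93), Zfp790 (10 and 23, 1.91), Zfp958 (14 and 31, 1.86) and Zfp599 (24 and 53, 1.85) completed the 10. Some of their sequence is not unique: 13.2% of the 100-base words of Zfp442, 10.2% of those of Zfp825 and 13.1% of those of Zfp566 also occur in transcripts of other genes.

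Only 3 of the 10 members with the lowest ratios had a KRAB match, 6 had none and Zfp939 had no protein. Zfp503, Zfp939, Zfp831, Zfp866 and Zfp184 were under an FPKM of 1 at week-3. They were thus members only through the library in which they were high. Zfp503 and Zfp703, which encode the related NET-family co-repressors NLZ2 and NLZ1 and had no finger by the pattern used, were both lower. Zfp503 had 41 week-0 reads (FPKM 1.53) and 0 at week-3, and it was the only member with 0 reads in a library. Set against a floor of 3 reads per library it was 8.36-fold lower, a figure that takes the 41 reads as exact. The upper end of its counting interval was a log2 ratio of -2.70. Zfp703 had 217 and 36 reads and FPKM of 10.3 and 2.80 (log2 ratio -1.88, interval -2.43 to -1.37). Zfp335, a regulator known in neural progenitors and in T cell maturation, had 283 and 35 reads and FPKM of 8.95 and 1.81, a log2 ratio of -2.31 (interval -2.86 to -1.80). Exons of 2 genes on the other strand overlap Zfp335 and 12.1% of its words are shared, and the strand setting of the counting is not given in the sources used here.

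The remaining genes of the 10 besides Zfp622 had moderate counts. Zfp939 had 19 and 3 reads, a log2 ratio of -1.95 with an interval of -4.35 to -0.19. Zfp831 had 86 and 17 reads (-1.63), and Zfp395 had 191 and 41 (-1.51). The 3 with a KRAB match were Zfp866 (65 and 13 reads, -1.61), Zfp212 (176 and 36, -1.58) and Zfp184 (70 and 15, -1.51). Outside the 10, Zfp687 and Zfp592 were chosen after their values were seen because their proteins are partners in a complex with ZMYND8. Zfp687 had 613 and 135 reads and FPKM of 5.53 and 1.99, and Zfp592 had 554 and 131 reads. Both were lower, with log2 ratios of -1.47 and -1.37. The members without a KRAB match that were higher numbered 8 (Zfp106, Zfp146, Zfp213, Zfp217, Zfp397, Zfp691, Zfp775 and Zfp839), with log2 ratios from 1.01 in Zfp146 to 1.47 in Zfp217, all smaller than those of the 10 highest members. With the TMM shift of -0.11, Zfp146 (1.01), Zfp397 (1.06) and Zfp839 (1.08) would fall inside the limit.

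**Figure D3:**
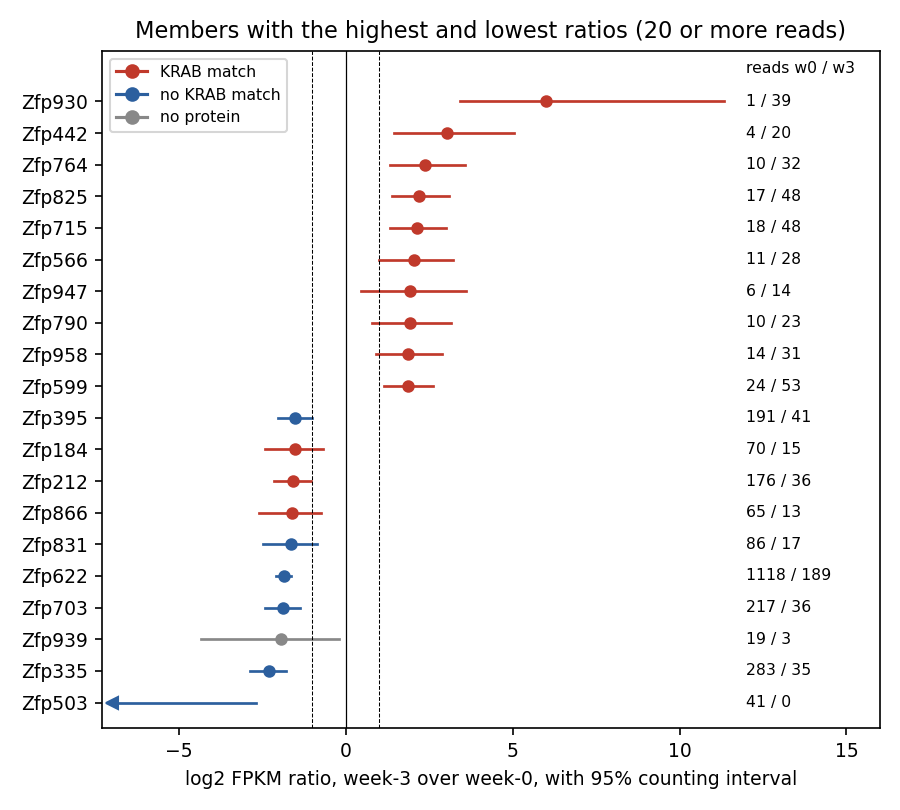
The 10 members with the highest and the 10 with the lowest FPKM ratio among those with at least 20 reads, with the log2 ratio (points, x axis), the 95% counting interval (lines) and the reads at week-0 and week-3 (numbers at the right). All 10 at the top have a KRAB match against 3 of the 10 at the bottom. Of the 10 at the top, 8 were under an FPKM of 1 at week-0. At the bottom, Zfp503, Zfp939, Zfp831, Zfp866 and Zfp184 were under an FPKM of 1 at week-3. The arrow for Zfp503 marks a library at 0 reads.

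Members with known roles were grouped in 4 lists. For scale, 12.9% of all expressed genes were higher and 15.8% were lower. Of 5 KRAB genes known to silence retroelements or imprinted loci, 4 were expressed, 1 was higher and 0 lower, and 2 (Zfp568 and Zfp932) had passed the limit only at week-3. Zfp568, which represses the placental Igf2 transcript, had FPKM of 0.612 and 1.54 (46 and 71 reads, log2 ratio 1.34). Zfp809, which recognizes the primer binding site of murine retroviruses, had 3.56 and 6.21 (30 and 32 reads, 0.80). Both stood above the median of all genes. Zfp932, a repressor of endogenous retroviruses, had 0.938 and 1.37, and Zfp445, a regulator of imprinting, had 2.07 and 2.43. Their intervals, -0.08 to 1.18 and -0.52 to 0.97, included 0. Zfp708 had no read in either library.

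Of 10 regulators with roles in blood or stem cells, 7 were expressed, 1 was higher and 3 were lower. Zfp521, a factor of immature hematopoietic cells that opposes EBF1, had 74 and 21 reads and FPKM of 1.89 and 0.878 (log2 ratio -1.11, interval -1.88 to -0.39). It had passed the FPKM limit only at week-0. Zfp384, known as a fusion partner in acute leukemia, had FPKM of 2.87 and 1.44 (360 and 110 reads, -1.001), and Zfp335 was given above. Zfp217, a CoREST-associated factor amplified in carcinomas, was the one higher, with 56 and 95 reads and FPKM of 1.01 and 2.80 (log2 ratio 1.47, interval 0.98 to 1.98). Zfp281 (-0.63), Zfp148 (0.29) and Zfp609 (0.12) were inside the limits. Zfp318, Zfp423 and Zfp462 were under the FPKM limit in both libraries.

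All 9 listed genes of RNA processing, translation or SUMO conjugation were expressed, with 1 higher and 2 lower. Besides Zfp622, the lower one was Zfp326, a subunit of the DBIRD complex that couples transcription to splicing, with 460 and 140 reads and FPKM of 6.23 and 3.10 (log2 ratio -1.01, interval -1.29 to -0.73). Zfp106, an RNA-binding protein of muscle and motor neurons, was higher, with 191 and 260 reads and FPKM of 1.99 and 4.42 (1.15), though 24.2% of its words are shared and 1 antisense gene overlaps it. Zfp598, a ubiquitin ligase that senses collided ribosomes, had FPKM of 9.96 and 11.7. It did not pass the limit, nor did Zfp638 (0.34), Zfp346 (0.79), Zfp207, Zfp830 (-0.19) or the SUMO ligase Zfp451 (0.11). Of 5 genes of promoters and chromatin, 0 passed either limit: Zfp143 had a log2 ratio of -0.21, Zfp131 0.09, Zfp292 0.37, Zfp219 -0.11 and Zfp110 0.84.

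Partners of the KRAB proteins were all present. Of 21 listed co-repressors and chromatin proteins, 21 were expressed, 4 were higher and 0 lower, with a median log2 ratio of 0.33. Trim28, the direct KRAB partner, had 1263 and 968 reads and FPKM of 26.6 and 33.3 (log2 ratio 0.33, interval 0.20 to 0.45). Setdb1 had 122 and 137 reads and FPKM of 2.24 and 4.11 (0.88, interval 0.51 to 1.24). Both were inside the fold limit. The 4 past it were Cbx5, which encodes HP1 alpha (7.54 and 15.2 FPKM, log2 ratio 1.02), Morc3 (3.37 and 6.88, 1.03) and the HUSH complex genes Mphosph8 (2.77 and 7.14, 1.36) and Fam208a (0.540 and 1.43, 1.40, from 26 and 42 reads). With the TMM shift of -0.11, Cbx5 and Morc3 would fall inside the limit, leaving Mphosph8 and Fam208a. With that scaling 10.8% of all expressed genes were higher. Fam208a had passed the FPKM limit only at week-3. The lowest were Daxx (-0.46) and Chd3 (-0.41).

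**Figure D4:**
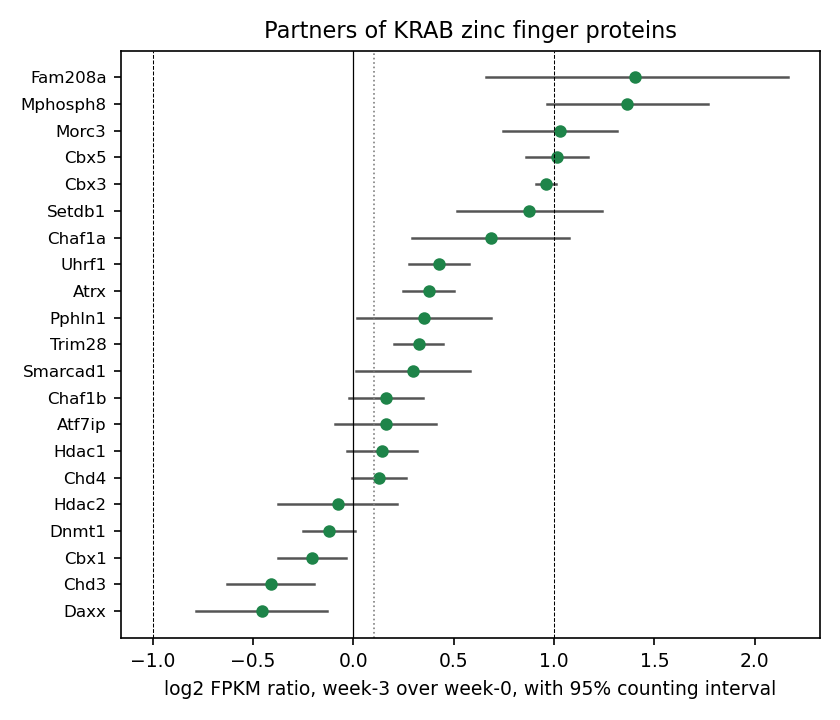
Log2 FPKM ratio (week-3 over week-0, x axis) of 21 partners of KRAB zinc finger proteins, as points with 95% counting intervals from 1 library per time point. Dashed lines are ratios of 2 and 0.5 and the dotted line is the median of all expressed genes (0.10); 4 genes lie past the upper limit and 0 past the lower one.

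Position was taken from the deposited coordinates, on GRCm38. Runs of at least 3 listed Zfp genes with neighbours at most 500 kb apart formed 22 clusters holding 145 of the listed genes, of which 69 (47.6%) were expressed, against 83 of 149 (55.7%) outside. Members in clusters had 15 higher and 6 lower (21.7% and 8.7%, median 0.39). Those outside had 14 and 16 (16.9% and 19.3%, median 0.09). Over all expressed genes, 12.9% were higher and 15.8% lower. Of the members in clusters, 21 had passed the limit only at week-3, against 10 of those outside. At 1 FPKM or more in both libraries, the 43 in clusters had 2 higher and 3 lower (median 0.09) and the 67 outside 7 and 10 (median 0.01). The background for that limit was 8.18% higher and 9.75% lower. Split by KRAB match, the gap was smaller or turned: with a match, the medians were 0.53 inside clusters (43 members) and 0.66 outside (17), and without a match 0.12 (25) and -0.06 (64). Chromosome 7 held the most, with 75 listed and 40 expressed, of which 9 were higher and 2 lower. Of 6 listed genes on chromosome X and 5 on chromosome 10, 0 were expressed.

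Clusters on chromosome 7 had different medians. The cluster at chr7:29816072-30169727 had 9 listed genes and 6 members, of which 5 were higher and 0 lower, with a median of 1.34. Of the 5 higher, all but Zfp146 had passed the limit only at week-3, which bears on this count and median. Its members in order were Zfp790, Zfp568, Zfp566, Zfp260, Zfp382 and Zfp146. Only Zfp260 was lower than at week-0, with 141 and 47 reads and a log2 ratio of -0.88 (interval -1.38 to -0.39). Because Zfp260 had the most reads, the summed reads of all 9 listed genes (261 and 233), which do not depend on the limit, gave a smaller log2 ratio of 0.55 (interval 0.28 to 0.81). Zfp382 (11 and 17 reads) and Zfp146 (17 and 21 reads) had intervals that began at 0.16 and 0.02, close to 0, and with the TMM shift Zfp146 would fall inside the limit. At chr7:127233061-127885996, 9 of 10 genes were expressed, 1 was higher and 0 lower. Its summed reads of 952 and 821 gave a log2 ratio of 0.50 (interval 0.36 to 0.63). The KRAB-free cluster at chr7:4915217-5053722 had 6 of 7 genes expressed with 0 past the limits and a sum of 0.01 (interval -0.20 to 0.22), and 94.6% of the words of its member Zfp784 are shared with other transcripts.

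Other chromosomes showed both directions. At chr2:150114406-150485091, all 4 genes had a KRAB match and 3 were expressed (Zfp120, Zfp442 and Zfp937). Of these, 2 were higher (both under an FPKM of 1 at week-0). Summed reads over the 4 genes were 42 and 66 (log2 ratio 1.36, interval 0.78 to 1.96). This cluster was chosen with earlier results known. It has fewer than the 4 members asked for in the plot of clusters, and its sum was the highest of all clusters. The other clusters with 3 members, at chr17:32771236-33631779 and chr7:24081924-25227507, had sums of 0.002 and -0.06 with intervals that included 0. The lowest sum, -2.27, was at chr2:164891882-165388259, where Zfp335 was the only member. At chr9:22055460-22307638, Zfp599 and Zfp809 belonged to 4 members with a median of 0.86 and a sum of 0.40 (interval 0.07 to 0.73). The cluster at chr8:69226343-69791178 went the other way. There Zfp866 and Zfp868 were lower, Zfp869 had a log2 ratio of -0.95 and only Zfp930 was higher, and summed reads of 284 and 118 gave -0.56 (interval -0.88 to -0.24). The clusters at chr17:21008941-22867134, with 7 of 13 genes expressed, and chr6:47819266-48623227, with 9 of 10, both had sums of -0.13 with intervals that included 0. The largest cluster, chr13:66670769-67827002, had 16 genes and 1 member, Zfp748.

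**Figure D5:**
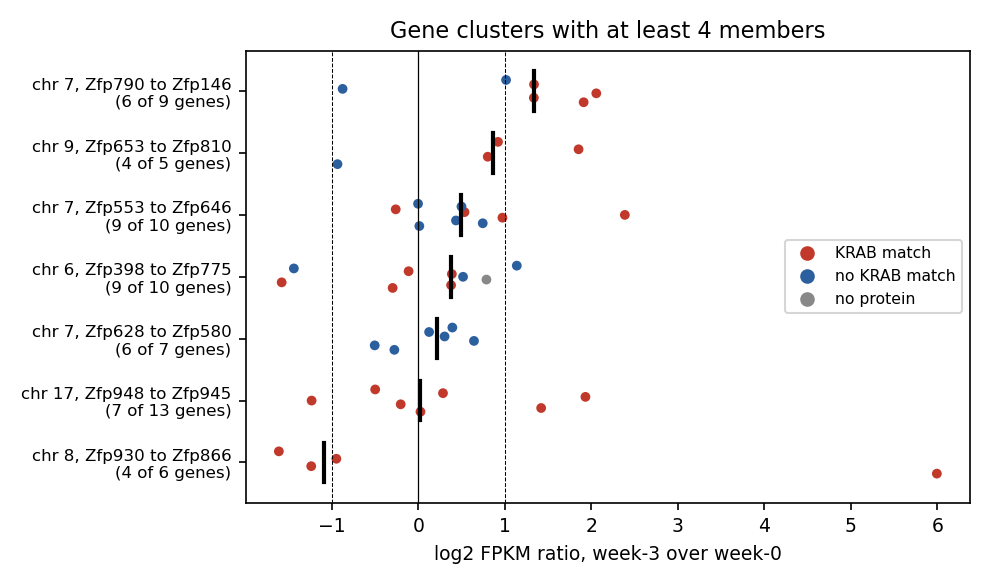
Log2 FPKM ratio (week-3 over week-0, x axis) of the members of each gene cluster with at least 4 members, 1 point per gene, named by the first and last member. Black bars are medians, which run from -1.09 in the cluster of Zfp930 to 1.34 in that of Zfp790, and dashed lines are ratios of 2 and 0.5.

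Promoters were taken from RefSeq (GRCm38.p6) as 250 bases before and 50 bases after the start of a gene, and 123 members had one. They were searched for 9 motifs on both strands. The classes with and without a KRAB match differed most, in percentage points, in the CCAAT box. Its letters CCAAT, which NF-Y binds, make the shortest of the 9 words. Short words turn up in more promoters, so a ranking in percentage points favours the CCAAT box. It was found in 39.0% of the promoters of all expressed genes (3176 of 8149), in 31 of 53 (58.5%) with a KRAB match and in 26 of 68 (38.2%) without. It was found in 16 of 22 members that were higher (72.7%) and in 5 of 17 that were lower (29.4%). Within the KRAB class alone it was in 11 of 15 that were higher (73.3%) and 20 of 38 that were not (52.6%). The FPKM limit bears on these splits as well. Of all 29 higher members, with or without a promoter, 9 were at 1 FPKM or more in both libraries, and of all 22 lower ones 13 were. Of the 21 higher members with a KRAB match, 3 were. The count of CpG also differed, with medians of 21 for all expressed genes, 13 with a match and 21.5 without. Median promoter GC content was 60.67%, 53.33% and 61.5% in the same order. The part of base composition in the CCAAT shares was not tested, and binding by NF-Y was not measured.

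The promoters of the 3 members with the highest and the 3 with the lowest ratios among those with a promoter in the table and at least 20 reads show what these windows look like. They are written 5′ to 3′ on the strand of the gene, and capitals mark CCAAT or its reverse complement.
Zfp442, chr2:150451452-150451751, minus strand: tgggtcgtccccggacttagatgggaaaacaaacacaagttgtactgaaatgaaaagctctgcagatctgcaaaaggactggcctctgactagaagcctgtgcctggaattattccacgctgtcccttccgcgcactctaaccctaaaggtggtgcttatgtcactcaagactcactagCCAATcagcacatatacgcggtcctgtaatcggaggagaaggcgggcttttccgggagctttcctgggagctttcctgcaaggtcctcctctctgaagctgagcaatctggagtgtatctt
Zfp764, chr7:127406773-127407072, minus strand: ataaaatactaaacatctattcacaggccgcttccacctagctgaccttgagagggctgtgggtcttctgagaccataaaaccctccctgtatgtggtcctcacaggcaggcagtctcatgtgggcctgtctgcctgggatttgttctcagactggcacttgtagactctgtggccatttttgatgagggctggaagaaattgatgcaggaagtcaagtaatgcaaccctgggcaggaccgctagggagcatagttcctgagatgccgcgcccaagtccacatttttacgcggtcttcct
Zfp825, chr13:74493912-74494211, minus strand: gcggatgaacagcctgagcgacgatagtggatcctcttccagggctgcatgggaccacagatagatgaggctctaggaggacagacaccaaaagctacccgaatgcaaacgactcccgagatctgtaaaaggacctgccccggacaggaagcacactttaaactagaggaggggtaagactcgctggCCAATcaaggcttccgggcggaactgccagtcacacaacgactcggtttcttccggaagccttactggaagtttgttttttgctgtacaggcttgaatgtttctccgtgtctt
Zfp503, chr14:21989552-21989851, minus strand: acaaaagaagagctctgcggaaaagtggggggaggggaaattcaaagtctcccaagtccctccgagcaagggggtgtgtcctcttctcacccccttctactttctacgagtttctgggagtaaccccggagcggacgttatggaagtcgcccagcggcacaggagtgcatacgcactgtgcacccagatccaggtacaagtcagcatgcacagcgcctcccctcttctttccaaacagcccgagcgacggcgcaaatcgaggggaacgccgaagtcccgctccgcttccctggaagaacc
Zfp335, chr2:164911701-164912000, minus strand: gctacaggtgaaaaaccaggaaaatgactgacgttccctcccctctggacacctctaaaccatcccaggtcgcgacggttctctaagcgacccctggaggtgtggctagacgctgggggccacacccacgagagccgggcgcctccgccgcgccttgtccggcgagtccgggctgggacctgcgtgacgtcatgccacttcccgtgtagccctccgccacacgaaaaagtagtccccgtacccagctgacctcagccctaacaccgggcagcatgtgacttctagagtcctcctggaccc
Zfp939, chr7:39449268-39449567, plus strand: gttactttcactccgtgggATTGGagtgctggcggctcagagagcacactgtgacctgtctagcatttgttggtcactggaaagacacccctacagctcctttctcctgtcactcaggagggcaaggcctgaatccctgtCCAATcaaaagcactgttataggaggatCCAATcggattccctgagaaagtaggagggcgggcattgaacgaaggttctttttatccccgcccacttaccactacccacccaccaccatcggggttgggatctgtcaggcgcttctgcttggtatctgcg
Among the 3 higher members, Zfp442 and Zfp825 held the motif and Zfp764 did not. Among the 3 lower ones, Zfp939 held it 3 times while Zfp503 and Zfp335 did not. A match is a description of the letters, and the other 8 motifs were in smaller shares. The ETS motif CCGGAAG was in 19.8% of all these promoters, 20.8% of those with a KRAB match and 17.6% of those without. The letters ACTACAA of the ZNF143 motif were in 4.58% of all and in 0 of 53 with a match. NRF1 (GCATGCGC) was in 5.77% of all and 5.66% with a match, the E-box CACGTG in 10.4% and 11.3%, YY1 (AAGATGG) in 7.73% and 7.55%, CRE (TGACGTCA) in 3.42% and 1.89%, AP-1 (TGACTCA) in 3.31% and 5.66%, and TATAAA in 6.96% and 1.89%.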

How the data were processed

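BM LSKs were sequenced as 1 library at week-0 and 1 at week-3. SMARTer cDNA from a low-input kit was sequenced from both ends by the authors, who trimmed the reads and mapped them to the mouse genome (mm10, TopHat2 2.0.9 in the submitters' processing notes). The deposited tables hold raw read counts of every gene beside FPKM that the authors had scaled to exon length and library size. The counting tool and its strand setting are not given in the sources used here.

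Members, lists and named genes were chosen with earlier results of these data known. Named were the 10 highest and 10 lowest ratios among members with 20 reads or more, the 8 highest mean levels, members at 0, those next to the limit, the role lists, cluster examples and the KRAB partners. Changes are log2 FPKM ratios without a pseudocount, called at 2 or 0.5, with no test. Intervals are 95% Clopper-Pearson, which were tested on simulated independent reads, a setting without PCR copies. KRAB letters and fingers were searched in proteins translated from GENCODE M21, where the plan had named RefSeq proteins; all 152 members matched by identifier, 102 had the same coordinates there and 149 had a protein. Exon overlaps and 100-base words shared with other transcripts came from the same annotation. Alternatives were scaling (edgeR 4.0.16 TMM, DESeq2 1.42.0 size factors), pseudocounts, limits on level, reads and fold, the counting interval, the edgeR exact test at assumed variation, and cluster gaps of 250 and 1000 kb. Software was R 4.3.3 and Python 3.11.15 with scipy 1.17.1, pandas 2.3.3, numpy 2.4.6 and, for plots, matplotlib 3.10.9. Zfp865 is listed on 2 rows, of which 1 is a member.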

Additional observations from a re-analysis of the deposited data

How the results depend on the processing

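With 1 library per time point, every value rests on single libraries. No paired analysis was possible because each time point has 1 library of mixed mice. TMM scaling put the median log2 ratio at 0.0994 for the members, -0.0113 for all expressed genes, 0.45 for members with a KRAB match and -0.10 for those without, so the second and the last changed sign. TMM gave 26 members higher and 29 lower (17.1% and 19.1%, against 10.8% and 17.6% of all expressed genes), and median-of-ratios scaling 26 and 27 (17.1% and 17.8%, against 11.1% and 17.2%). A pseudocount of 1 left 8 higher and 8 lower (5.26% each, below the 7.03% and 10.1% of all genes) and a KRAB median of 0.36. When an FPKM of 2 was required in 1 library or both, there were 15 higher and 13 lower of 100 (all genes 10.9% and 14.3%), and the medians were 0.0936 for the members and 0.38 with a KRAB match. When 1 was required in both, there were 9 and 13 of 110 (8.18% and 11.8%, all genes 8.18% and 9.75%), with medians of 0.0745 and 0.14. Without a limit on FPKM, 59 were higher and 32 lower of 247 (23.9% and 13.0%, all genes 14.2% and 16.2%). Fold limits of 1.5 and 0.67 gave 47 and 38 (30.9% and 25%, all genes 26.0% and 24.4%). The edgeR exact test at q under 0.05 and an assumed biological coefficient of variation of 0.1 kept 24 and 18 (15.8% and 11.8%, all genes 9.4% and 11.5%), and at 0.4 it kept 1 and 0. At that setting the share called among all expressed genes was 0.238% higher and 0.739% lower. Of the settings chosen after seeing the data, members with under 10% of shared words had a median of 0.11, and the 104 members whose exons overlap no other gene had 25 higher and 14 lower (24.0% and 13.5%, all genes 13.0% and 15.8%), the lower count reflecting the smaller set. The KRAB median stayed above that of members without a match in each setting where both medians were taken. When 1 FPKM was required in both libraries, the medians were 0.14 and 0.01, against 0.11 for all genes. Most of the settings kept members that reached the limit in 1 library only, and all used the same 2 libraries. Among 44 values of single genes under these settings, 6 moved by more than their counting interval and 38 did not. Where the cause of a move is not given by the setting itself, the cause was not tested. Of the members, 3 had under 20 reads in all.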

Other observations

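Number of fingers was not used to choose the members. Fingers were counted only where they had the fixed spacing of the pattern. Those with other spacings were missed, so the low classes can hold proteins with more fingers. The 24 members with 0 to 1 fingers had 2 higher and 6 lower (median log2 ratio -0.03), the 26 with 2 to 5 fingers had 2 and 1 (0.33), the 41 with 6 to 9 fingers had 9 and 6 (0.12) and the 58 with 10 to 40 fingers had 16 and 7 (0.28). Over all expressed genes, 12.9% were higher and 15.8% lower. In the class with 6 to 9 fingers, 9 members had passed the FPKM limit only at week-3. The 32 of that class at 1 FPKM or more in both libraries had 3 higher and 6 lower (median -0.07). In the class with 10 to 40 fingers, 18 members had passed the FPKM limit only at week-3. The 32 of that class at 1 FPKM or more in both libraries had 3 higher and 1 lower (median 0.02). The background for that limit was 8.18% higher and 9.75% lower. The members with a KRAB match numbered 0, 6, 18 and 36 in these 4 classes. Within the KRAB class the Spearman correlation of finger number with the log2 ratio was 0.0582 over 60 genes, which is a description.

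Of the 46 members with a KRAB match, no exon overlap and under 10% of shared words, 17 were higher and 3 lower (median 0.59), and of 50 such members without a match 5 were higher and 10 lower (median -0.06). Of the 46, 18 had passed the FPKM limit only at week-3, and the 25 at 1 FPKM or more in both libraries had 2 higher and 2 lower (median 0.14). On chromosome 13, 28 Zfp genes were listed and 7 were expressed, and on chromosome 17, 29 were listed and 14 expressed.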
